A study of Mus musculus with 12 samples.

Results

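The Hox cluster genes were followed through 4 mouse induced pluripotent stem (iPS) cell lines, LiPS-45, LiPS-47, LiPS-50 and LiPS-57, each measured as 3 cultures labelled as biological repeats. All 4 lines were of strain C57BL/6J, had been reprogrammed from embryonic fibroblasts with 3 factors that the labels do not name, and were grown in medium for embryonic stem cells. LiPS-45 and LiPS-57 are labelled as competent for tetraploid complementation, the assay in which a mouse is formed from the injected cells while the tetraploid host embryo supplies the placenta, and LiPS-47 and LiPS-50 as not competent. A comparison by competence therefore rests on 2 lines per class, and no fibroblast or embryonic stem cell sample was part of the comparison. Members were the probe sets assigned to 1 gene whose symbol is Hoxa, Hoxb, Hoxc or Hoxd followed by a number from 1 to 13. This gave 37 genes, each with 1 probe set, out of 28939 probe sets and 19938 genes tested. The Hoxa cluster (chromosome 6) contributed 10 genes, and the Hoxb (chromosome 11), Hoxc (chromosome 15) and Hoxd (chromosome 2) clusters 9 each.

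Hox genes encode homeodomain transcription factors that give cells their position along the head-to-tail axis. Within a cluster the genes stand in the order in which they are used, low-numbered paralogs in the hindbrain and neck and high-numbered paralogs in the trunk and tail. In pluripotent cells the clusters are held silent by Polycomb complexes at CpG-rich promoters that carry activating and repressive histone marks together. Fibroblasts, in contrast, keep a Hox code of the body site they came from, and the paralogs of the trunk are widely used as its readout.

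Promoter windows from RefSeq (build GRCm38.p6, a stretch mostly upstream of the transcription start) were found for 21 of the 37 genes, 23 windows in all. The windows of Hoxd8 and Hoxa9 are shown because both genes were called in a comparison below, and that of Hoxd9, the next gene of the Hoxd cluster, because it was not. Capitals mark CG dinucleotides, and each is written 5′ to 3′ on the strand of the gene. Hoxd8 lies at chr2:74704365-74704664 (plus strand), Hoxa9 at chr6:52227321-52227620 (minus strand) and Hoxd9 at chr2:74697513-74697812 (plus strand).
Hoxd8: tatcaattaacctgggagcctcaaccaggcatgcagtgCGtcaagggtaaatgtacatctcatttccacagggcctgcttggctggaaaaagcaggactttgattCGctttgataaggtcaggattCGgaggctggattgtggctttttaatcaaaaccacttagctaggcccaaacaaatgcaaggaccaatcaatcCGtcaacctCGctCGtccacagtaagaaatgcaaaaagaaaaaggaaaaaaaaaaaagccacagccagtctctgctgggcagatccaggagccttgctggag
Hoxa9: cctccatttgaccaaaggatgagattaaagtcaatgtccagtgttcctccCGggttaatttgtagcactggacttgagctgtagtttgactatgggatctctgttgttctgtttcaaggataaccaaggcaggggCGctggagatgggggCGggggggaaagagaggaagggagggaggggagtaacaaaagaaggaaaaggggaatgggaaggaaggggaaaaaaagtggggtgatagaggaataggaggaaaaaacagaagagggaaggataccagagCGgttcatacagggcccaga
Hoxd9: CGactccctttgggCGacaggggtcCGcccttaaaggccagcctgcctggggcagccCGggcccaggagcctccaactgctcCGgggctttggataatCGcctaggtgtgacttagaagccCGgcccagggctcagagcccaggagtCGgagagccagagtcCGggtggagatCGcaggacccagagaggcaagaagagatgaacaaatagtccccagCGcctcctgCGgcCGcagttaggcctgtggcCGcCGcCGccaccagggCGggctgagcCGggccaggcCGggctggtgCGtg
The Hoxd8 window holds 6 CG dinucleotides, the Hoxa9 window 4 and the Hoxd9 window 20, but the number does not separate called from uncalled genes: the uncalled Hoxd4 also has 4, and Hoxa2, Hoxa7 and Hoxc4 have 9 each. Over the 23 Hox windows the median was 15 CG (4 to 45), against 7 (0 to 67) over the 32851 windows of the table. The letters TTTAT, searched on both strands as the core of the site of posterior Hox and Cdx proteins, occurred in 8 of the 23 Hox windows (34.8%) and in 13143 of all 32851. TGATNNAT, the joint site of Pbx and Hox proteins searched on both strands, occurred in 3 of the 23 Hox windows and 2906 of all (8.85%). These matches describe the letters only, and no binding was measured. Hoxd11 has 2 windows, with 4 and 25 CG. No window was matched for Hoxc5, Hoxc6, Hoxc8, Hoxb9 and Hoxb13.

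The clusters also hold microRNA genes, and their mature sequences are shown because the host loci of miR-196 are measured on the same arrays. Capitals mark the seed, bases 2 to 8, that pairs with target messenger RNAs.
miR-196a-5p: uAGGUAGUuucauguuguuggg
miR-196b-5p: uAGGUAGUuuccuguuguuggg
miR-10a-5p: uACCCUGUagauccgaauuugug
miR-10b-5p: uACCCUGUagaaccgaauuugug
The miR-196 sequences share 1 seed and differ at 1 base, and the miR-10 sequences share another seed and also differ at 1 base. Mir196a-1 lies in the Hoxb cluster, Mir196b in Hoxa, Mir10a in Hoxb and Mir10b in Hoxd, and Mir196a-2 in Hoxc gives the same mature miR-196a-5p as Mir196a-1.

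The 12 arrays were close in scale, and the medians of the arrays lay within 0.0981 log2 units of each other. Markers of pluripotent cells were high in every culture: the summed intensity of the 15 genes of that list was 23574 to 24888 over the 12 arrays. LiPS-50 stood apart from the other lines in fibroblast markers. The summed intensity of the 31 measured fibroblast and feeder genes was 38567 to 43379 in LiPS-50, 27607 to 32793 in LiPS-45, 23660 to 29383 in LiPS-47 and 27915 to 30123 in LiPS-57, so that the markers were far from 0 in all lines and highest in LiPS-50. The labels mention no feeder cells. Because the samples are bulk cultures, fewer cells of a type and less RNA per cell cannot be told apart.

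Hox probe sets had low to middle intensities and differed little between the lines. On the log2(intensity + 1) scale used throughout, single values lay between 3.94 and 6.98 and line means between 4.18 and 6.89. Of the 37 genes, 17 had a mean below 5.21, the 40th percentile of all tested probe sets, and 20 above it, a division close to that of all probe sets. The range over the 4 line means was 0.0449 for the most even gene, 0.23 at the median and 0.62 for the most varied, and the SD between the 3 cultures of a line was 0.11 at the median (0.0160 to 0.34). Whether a value at the low end stands above background cannot be read from these data, since no detection call was used here. LiPS-50 had the highest mean for 27 genes, LiPS-57 for 6, LiPS-47 for 4 and LiPS-45 for none. The lowest mean fell in LiPS-45 for 16 genes, in LiPS-47 for 12, in LiPS-57 for 8 and in LiPS-50 for 1.

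**Figure D1:**
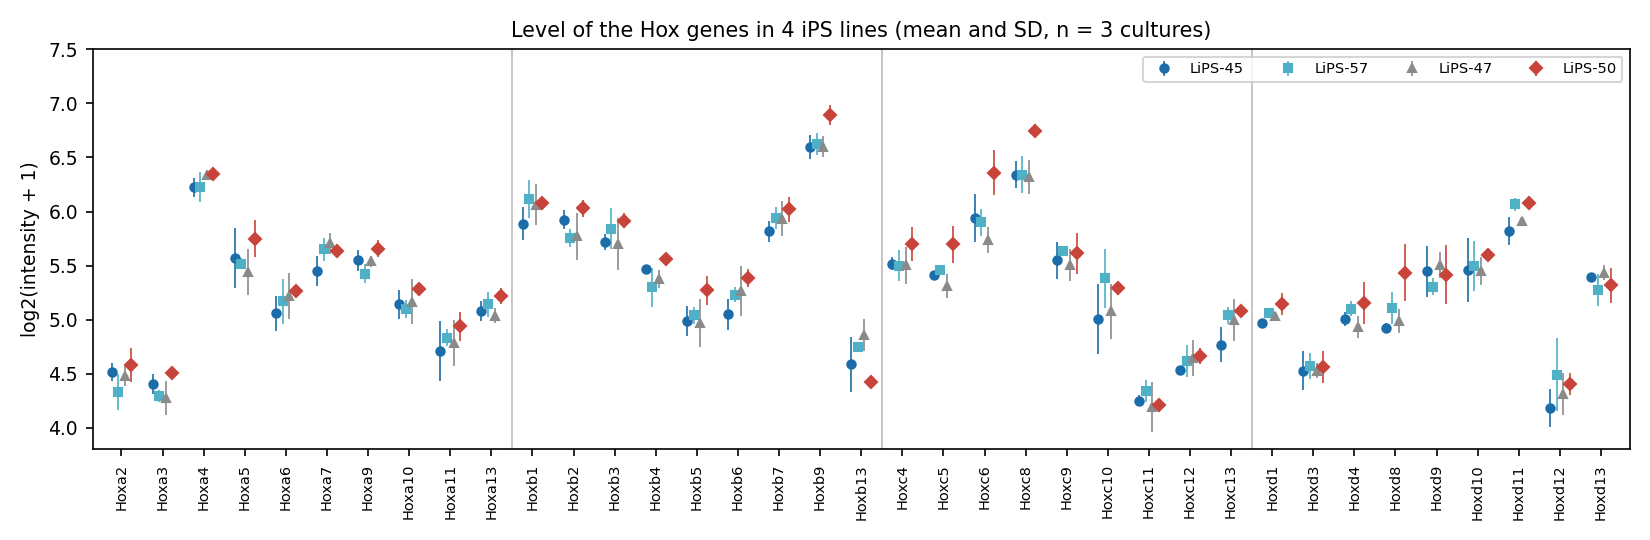
Mean and SD (n = 3 cultures) of log2(intensity + 1) for the 37 Hox genes in the 4 lines, ordered by cluster and paralog number along the horizontal axis. Values are to be compared between lines within a gene, not between genes; LiPS-50 (diamonds) has the highest mean for 27 of the 37.

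The first question of the design is whether competent and non-competent lines differ. No Hox gene passed the test for competence: 0 of 37 were called by limma when line entered as a random block (Benjamini-Hochberg over 28939 probe sets, threshold 0.05), and 0% of all probe sets were. At an unadjusted p under 0.05 stood 0 of the 37, against 7.69% of all probe sets. The smallest adjusted p among the members in this limma fit was 0.672, for Hoxb6, a gene of the thoracic region. Hoxb6 read 5.09, 5.17 and 4.89 in LiPS-45 and 5.17, 5.22 and 5.31 in LiPS-57, against 5.01, 5.46 and 5.34 in LiPS-47 and 5.48, 5.32 and 5.36 in LiPS-50. The competent cultures tended to the lower end, but 1 culture of LiPS-47 lay among them, and the groups overlapped. The largest difference by competence over the 37 genes was 1.15-fold. In 31 of 37 genes the mean of the competent lines was the lower one (median difference -0.080), where 52.1% of all probe sets were lower in the competent lines. Taken line by line, non-competent LiPS-47 had the higher mean in 20 of 37 genes against LiPS-45 and in 14 against LiPS-57, while LiPS-50 did in 33 and 29. All 31 fibroblast genes were lower in the competent lines as well (median difference of non-competent minus competent lines 0.23). In that list LiPS-47 was the higher line in 0 of 31 genes against LiPS-45 and 1 of 31 against LiPS-57, and LiPS-50 in 31 of 31 against each. The part of the fibroblast genes in the result was not tested. With only the spread between cultures as error, which treats the cultures of a line as independent, 0 of the 37 were called and 5 had an unadjusted p under 0.05, while 1789 probe sets were called in all.

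No Hox gene was called among LiPS-45, LiPS-57 and LiPS-47. None passed between LiPS-45 and LiPS-47, where 0.0622% of all probe sets were called in the same limma fit, none between LiPS-57 and LiPS-47 (0.159%) and none between LiPS-45 and LiPS-57 (0.266%). At an unadjusted p under 0.05 stood 3, 1 and 3 members in that order (8.11%, 2.70% and 8.11% of 37), against 8.93%, 6.89% and 8.01% of all probe sets. The largest differences were 1.21-fold (Hoxb13), 1.23-fold (Hoxc10) and 1.29-fold (Hoxc10). Hoxc10, a gene of the lumbar region, also varied between the cultures of a line: its values were 4.71, 5.35 and 4.97 in LiPS-45, 4.88, 5.36 and 4.99 in LiPS-47, 5.34, 5.23 and 5.30 in LiPS-50 and 5.20, 5.69 and 5.25 in LiPS-57. One culture of LiPS-45 and one of LiPS-47 reached the level of LiPS-50, so the lines overlapped. The half-width of the 95% interval of a difference between 2 lines was 0.22 at the median (0.13 to 0.37), and all 37 intervals lay within a 2-fold change in either direction in each of these comparisons. The farthest bounds were 1.43-fold for Hoxb13 between LiPS-45 and LiPS-47, 1.60-fold for Hoxc10 between LiPS-57 and LiPS-47 and 1.68-fold for Hoxc10 between LiPS-45 and LiPS-57. These intervals bound the change in measured intensity, which can understate a change in RNA for dim probe sets.

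LiPS-50 differed from each of the other lines in a few Hox genes, most of them higher in LiPS-50. Against LiPS-45, 6 of 37 (16.2%) were called, all higher in LiPS-50, where 16.5% of all probe sets were called, 8.18% higher and 8.3% lower. Against LiPS-57, 4 of 37 (10.8%) were called, all higher, with 15.6% of all probe sets called, 8.16% higher and 7.48% lower. Against LiPS-47, 5 were higher (13.5%) and Hoxb13 was lower (2.70%), with 15.8% of all probe sets called, 8.48% higher and 7.31% lower. The total share of Hox calls was thus near or below that of all probe sets in each comparison, and the calls lay mostly on the side of higher values. With each array centred on its median, the calls over all probe sets were split into 1723 higher and 3227 lower in LiPS-50 against LiPS-45 (2368 and 2403 without centring) and 1753 and 2882 against LiPS-57 (2362 and 2165). The Hox calls were then 2 higher and 0 lower against LiPS-45, 2 higher and 1 lower against LiPS-57 (the same with quantile normalization) and 4 higher and 1 lower against LiPS-47. The 3 comparisons share the LiPS-50 arrays. Counting genes, 8 Hox genes were called at least once and 29 in none.

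Across all 37 genes the median difference of LiPS-50 minus LiPS-45 was 0.18, minus LiPS-57 0.10 and minus LiPS-47 0.12, where the medians over all probe sets were 0.000237, -0.000186 and -0.0140. The mean was higher in LiPS-50 for 33, 29 and 33 of the 37 genes, and for 50.1%, 49.9% and 46.2% of all probe sets. The fibroblast and feeder list moved with LiPS-50 in the same comparisons: 30, 29 and 30 of its 31 genes were called higher and 0 lower, with median differences of 0.69, 0.69 and 0.85. Its part in the Hox differences was not tested.

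Read by position, the higher values were called among paralogs 5 to 9, the thoracic part of the code, plus Hoxd11. This division of the paralogs was chosen after the values were seen and carries no test. Of the 14 genes of paralogs 5 to 9, 5, 4 and 5 were called higher in LiPS-50 against LiPS-45, LiPS-57 and LiPS-47 in turn, with medians of 0.25, 0.23 and 0.20. Over all probe sets 8.18%, 8.16% and 8.48% were called higher in these comparisons. Of the 11 genes of paralogs 1 to 4, none was called in any of the 3, with medians of 0.12, 0.12 and 0.18. Of the 12 genes of paralogs 10 to 13, only Hoxd11 was called higher (against LiPS-45) and only Hoxb13 lower (against LiPS-47), with medians of 0.14, 0.039 and 0.10. The medians of the uncalled anterior genes thus lay close to those of the thoracic genes against LiPS-47. The groups also differed in intensity: most genes of paralogs 5 to 9 had a mean above 5.21, and most of paralogs 10 to 13 a mean below it. The part of intensity in the calls by position was not tested.

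**Figure D2:**
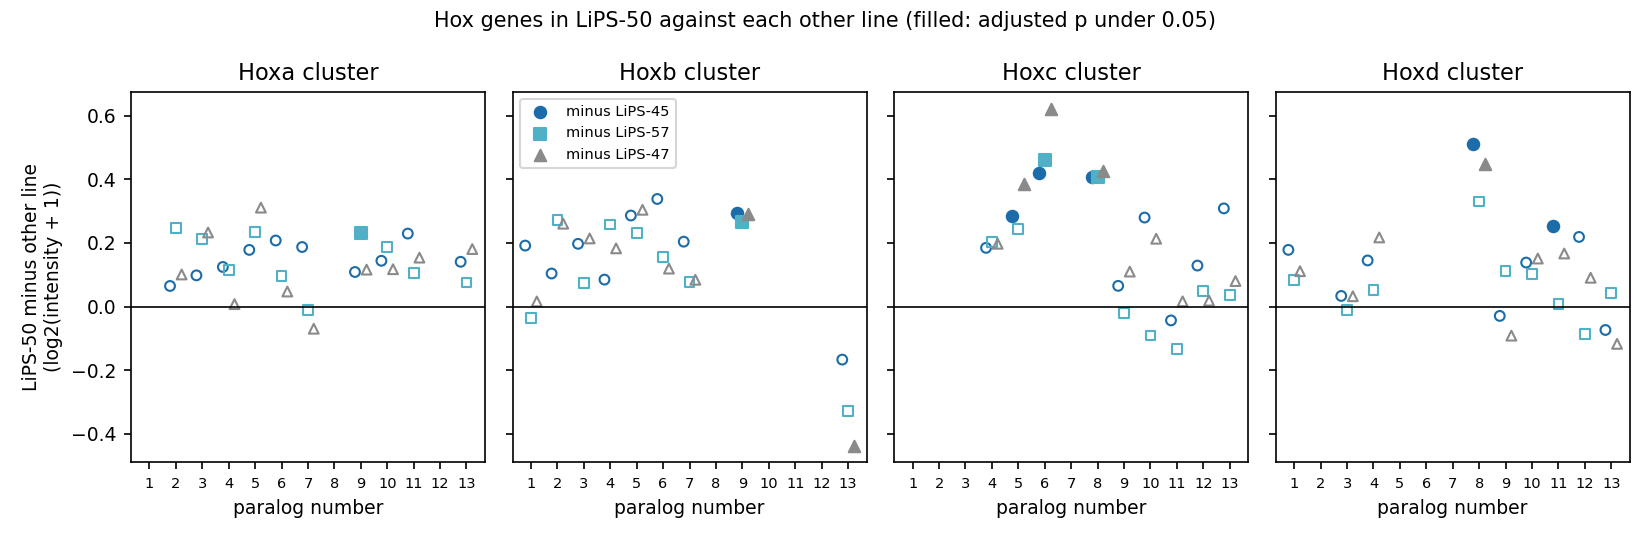
Difference of LiPS-50 minus each other line in log2(intensity + 1) by paralog number, 1 panel per cluster; filled symbols passed the limma test at an adjusted p under 0.05. The filled symbols above 0 are Hoxa9, Hoxb9, Hoxc5, Hoxc6, Hoxc8, Hoxd8 and Hoxd11, and the one below 0 is Hoxb13.

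By cluster, Hoxc held the most calls: 3, 2 and 3 of its 9 genes were higher in LiPS-50 in the comparisons with LiPS-45, LiPS-57 and LiPS-47. The Hoxc median differences were 0.28, 0.049 and 0.20. In Hoxd, 2, 0 and 1 of 9 genes were called (medians 0.14, 0.053 and 0.11), and in Hoxb 1, 1 and 2 of 9, Hoxb13 among the last (medians 0.20, 0.16 and 0.18). Hoxa had 0, 1 and 0 calls among 10 genes (medians 0.14, 0.15 and 0.12). In the same comparisons 8.18%, 8.16% and 8.48% of all probe sets were called higher in LiPS-50 and 8.3%, 7.48% and 7.31% lower. Whether the clusters differ in their share of calls was not tested. The per-array median over the paralogs 5 to 9 was 5.67 ± 0.0445 (SD, n = 3) in LiPS-50, 5.48 ± 0.0554 in LiPS-45, 5.51 ± 0.0687 in LiPS-47 and 5.49 ± 0.0424 in LiPS-57. The LiPS-50 arrays (5.62 to 5.71) lay above the highest other array at 5.57, but these paralogs were picked with the values in view. The median over all 37 genes did overlap, with LiPS-50 at 5.39 to 5.47 and the highest LiPS-47 array at 5.43. The medians of the whole clusters overlapped too: the highest array outside LiPS-50 stood at 5.29, 5.90, 5.58 and 5.19 in Hoxa, Hoxb, Hoxc and Hoxd, above the lowest LiPS-50 array of the same cluster at 5.27, 5.84, 5.40 and 5.14.

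Hoxc6, a thoracic gene whose anterior border marks the start of the rib-bearing region, had the largest change. It read 6.60, 6.20 and 6.28 in LiPS-50 and 5.80, 5.81 and 5.60 in LiPS-47. In LiPS-45 it read 5.91, 6.17 and 5.73, and in LiPS-57 5.79, 5.87 and 6.04. All 3 LiPS-50 cultures were the highest, and the nearest culture was 1 of LiPS-45. The difference was 0.62 against LiPS-47 (1.54-fold, limma adjusted p = 0.00473), 0.46 against LiPS-57 (1.38-fold, adjusted p = 0.0267) and 0.42 against LiPS-45 (1.34-fold, adjusted p = 0.0391), each with SE 0.126. The call against LiPS-47 held without each of the 12 cultures in turn (adjusted p up to 0.0241). Against LiPS-57 it was lost without LiPS-50 replicate 1 and without LiPS-57 replicate 1 or 2 (adjusted p up to 0.109), and against LiPS-45 without LiPS-45 replicate 1 or 3, LiPS-50 replicate 1 or 3 or LiPS-57 replicate 2 (up to 0.158). The call against LiPS-45 was also lost with the replicate block, median centring, quantile normalization, the control probe sets kept and only the lines compared (up to 0.0900), and that against LiPS-57 with the control probe sets kept (0.05004).

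Hoxc8, which patterns the thoracic vertebrae and ribs and the neurons that serve the forelimb, was called in each comparison with LiPS-50. Its values were 6.76, 6.80 and 6.68 in LiPS-50 and 6.31, 6.48 and 6.23 in LiPS-45. LiPS-47 gave 6.27, 6.50 and 6.20, and LiPS-57 6.17, 6.34 and 6.51. The LiPS-50 cultures lay close together and above all 9 others. The differences were 0.41 against LiPS-45 (1.33-fold, SE 0.102, limma adjusted p = 0.0167), 0.41 against LiPS-57 (1.33-fold, adjusted p = 0.0175) and 0.42 against LiPS-47 (1.34-fold, adjusted p = 0.0132). The call was lost against LiPS-45 without LiPS-45 replicate 1 or 3 or LiPS-50 replicate 1 or 2 (adjusted p up to 0.0739), against LiPS-57 without LiPS-50 replicate 1 or 2 or LiPS-57 replicate 1 (up to 0.0763) and against LiPS-47 without LiPS-47 replicate 3 (0.0584).

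Hoxc5, the neighbour of Hoxc6 with a role at the neck to thorax transition, read 5.79, 5.80 and 5.50 in LiPS-50. It read 5.39, 5.44 and 5.41 in LiPS-45, 5.19, 5.37 and 5.38 in LiPS-47 and 5.41, 5.47 and 5.48 in LiPS-57. LiPS-50 replicate 3 stood only just above the LiPS-57 cultures, while the other 2 LiPS-50 cultures were clear of all lines. Hoxc5 was higher in LiPS-50 by 0.39 against LiPS-47 (1.31-fold, SE 0.0846, limma adjusted p = 0.00775) and by 0.29 against LiPS-45 (1.22-fold, adjusted p = 0.0376). Against LiPS-57 the groups did not overlap, but the difference of 0.24 was not called. The call against LiPS-47 held without each culture in turn (adjusted p up to 0.0375), and that against LiPS-45 was lost in 7 of the 12 refits, those without any 1 LiPS-45 culture, LiPS-50 replicate 1 or 2, or LiPS-57 replicate 2 or 3 (up to 0.134). The call against LiPS-45 was kept in only 2 of the 7 other settings, and lost with the replicate block, median centring, quantile normalization, the control probe sets kept and only the lines compared (up to 0.0855). The remaining Hoxc genes, Hoxc4 and Hoxc9 to Hoxc13, were called in no comparison.

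**Figure D3:**
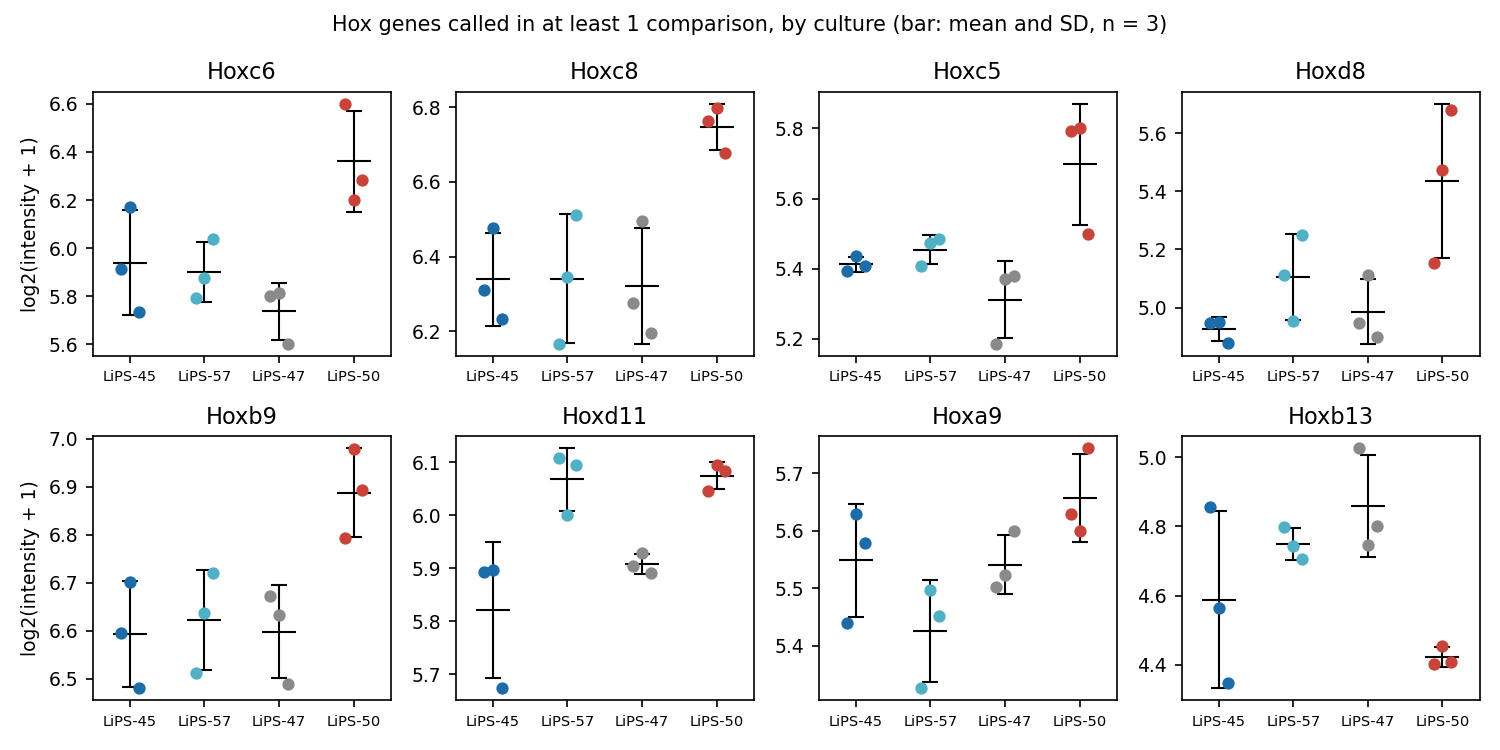
The 8 Hox genes called in at least 1 comparison, log2(intensity + 1) of each culture (points) with the mean and SD of the 3 cultures of a line (bars). For Hoxc6, Hoxc8, Hoxc5 and Hoxb9 the 3 LiPS-50 cultures lie above all other cultures, and for Hoxb13 LiPS-50 is low; each panel has its own vertical range, which does not start at 0.

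Hoxd8, a trunk gene next to Hoxd9 in its cluster, was higher in LiPS-50 than in 2 of the lines. It read 5.15, 5.47 and 5.68 in LiPS-50, 4.95, 4.95 and 4.88 in LiPS-45 and 4.95, 5.11 and 4.90 in LiPS-47. In LiPS-57 it read 5.11, 4.95 and 5.25. LiPS-50 replicate 1 lay near the top culture of LiPS-47 and below that of LiPS-57, so LiPS-50 overlapped with LiPS-57 only. The difference was 0.51 against LiPS-45 (1.42-fold, SE 0.119, limma adjusted p = 0.0113) and 0.45 against LiPS-47 (1.37-fold, adjusted p = 0.0217). Against LiPS-57 it was 0.33 and not called (adjusted p = 0.0855 in the same limma fit). The call against LiPS-45 held without each culture in turn (adjusted p up to 0.0455), and that against LiPS-47 was lost without LiPS-47 replicate 1 or 3 or LiPS-50 replicate 2 or 3 (up to 0.0856) and with only the lines compared (0.0686).

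Hoxd11, which with its Hoxa partner builds the forearm bones, read 6.05, 6.09 and 6.08 in LiPS-50 and 5.89, 5.90 and 5.67 in LiPS-45. It read 6.11, 6.00 and 6.09 in LiPS-57, inside or next to the LiPS-50 range, and 5.90, 5.93 and 5.89 in LiPS-47. The means of LiPS-50 and LiPS-57 thus stood above those of LiPS-45 and LiPS-47, an order that does not follow the competence labels. Most of these differences were not called. The limma adjusted p was 0.130 for LiPS-47 against LiPS-50, 0.301 for LiPS-45 against LiPS-57 and 0.682 for LiPS-57 against LiPS-47. The difference of LiPS-50 and LiPS-45 was 0.25 (1.19-fold, SE 0.0679, limma adjusted p = 0.0234), and it was the only call for this gene. It was lost without LiPS-45 replicate 3 or LiPS-50 replicate 2 or 3 (adjusted p up to 0.0914), and also with median centring and with only the lines compared (up to 0.0771). The RefSeq span of Hoxd11 overlaps that of Hoxd10, and whether the probe set reads sequence that both share was not tested.

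Hoxb9, a thoracic gene that shapes the ribs and sternum, read 6.79, 6.98 and 6.89 in LiPS-50 and 6.60, 6.70 and 6.48 in LiPS-45. It read 6.67, 6.63 and 6.49 in LiPS-47 and 6.51, 6.64 and 6.72 in LiPS-57. The LiPS-50 cultures were all above the others, the nearest being 1 of LiPS-57. Hoxb9 was higher in LiPS-50 by 0.30 against LiPS-45 (1.23-fold, SE 0.0827, limma adjusted p = 0.0290), by 0.29 against LiPS-47 (1.22-fold, adjusted p = 0.0322) and by 0.27 against LiPS-57 (1.20-fold, adjusted p = 0.0486). Leaving out 1 culture ended the first call for LiPS-45 replicates 1 and 3 and LiPS-50 replicates 2 and 3 (adjusted p up to 0.119) and the next for LiPS-47 replicates 2 and 3 and LiPS-50 replicates 2 and 3 (up to 0.123). It ended the call against LiPS-57 in 7 of 12 refits, without LiPS-45 replicate 1, LiPS-47 replicate 1 or 2, LiPS-50 replicate 2 or 3, or LiPS-57 replicate 1 or 2 (up to 0.178). All 3 calls were also lost with median centring and with only the lines compared, and those against LiPS-47 and LiPS-57 with quantile normalization and with the control probe sets kept (adjusted p up to 0.0996). The call against LiPS-57 was lost with the replicate block as well.

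Hoxa9, known for its part in blood progenitors and leukaemia, was the only called gene of the Hoxa cluster. It read 5.63, 5.60 and 5.74 in LiPS-50 and 5.33, 5.50 and 5.45 in LiPS-57. LiPS-45 gave 5.44, 5.63 and 5.58, and LiPS-47 5.50, 5.52 and 5.60, both reaching into the LiPS-50 range. The difference against LiPS-57 was 0.23 (1.17-fold, SE 0.0721, limma adjusted p = 0.0474). Its call was lost in 11 of the 12 refits without 1 culture, all but that without LiPS-45 replicate 1 (adjusted p up to 0.175). It was also lost with median centring, quantile normalization, the control probe sets kept and only the lines compared (up to 0.159).

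Hoxb13, the last gene of its cluster, active in the tail region and the prostate, ran the other way. It read 4.40, 4.46 and 4.41 in LiPS-50 and 5.03, 4.75 and 4.80 in LiPS-47. It read 4.80, 4.74 and 4.71 in LiPS-57 and 4.86, 4.56 and 4.35 in LiPS-45, whose lowest culture fell below LiPS-50. LiPS-50 was lower than LiPS-47 (1.35-fold, difference -0.44, SE 0.111, limma adjusted p = 0.0178), and -0.33 against LiPS-57 was not called in the same fit (adjusted p = 0.0675). This difference was the most negative of the 37 genes against LiPS-57. In that comparison 1 Hox gene was called lower with median centring or quantile normalization. The call against LiPS-47 was lost without LiPS-47 replicate 1 or LiPS-50 replicate 1 or 3 (up to 0.0748).

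Among the uncalled members, Hoxb6 and Hoxc13 came closest. Hoxb6 was 0.34 higher in LiPS-50 than in LiPS-45 (SE 0.109, limma adjusted p = 0.0526) and Hoxc13, a gene of hair and nails, 0.31 higher (1.24-fold, adjusted p = 0.0553), both without overlap of the cultures. Hoxb4, a gene of the neck and of blood stem cells, was 0.26 higher than in LiPS-57 (adjusted p = 0.0598 in the same limma fit). Of the 37 genes, 11, 11 and 13 had an unadjusted p under 0.05 against LiPS-45, LiPS-57 and LiPS-47 (29.7%, 29.7% and 35.1%), where all probe sets gave 28.5%, 26.7% and 27.1%. A probe set listed for both Hoxb7 and Hoxb8 was not counted as a member, and it read 4.29 ± 0.181 (SD, n = 3) in LiPS-50, 4.14 ± 0.0331 in LiPS-45, 4.04 ± 0.121 in LiPS-47 and 4.20 ± 0.112 in LiPS-57, with no call.

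The order of the cultures within a line was compared between the called Hox genes and the fibroblast list, and it varied by gene. The median of the fibroblast list was 8.48, 8.65 and 8.39 in the LiPS-45 cultures, 8.33, 8.52 and 7.99 in LiPS-47, 9.28, 8.94 and 9.17 in LiPS-50 and 8.29, 8.48 and 8.45 in LiPS-57. The culture lowest in the list was also the lowest in Hoxc6 in 4 of 4 lines, and the culture highest in the list was the highest in Hoxc6 in 3 of 4. For Hoxc8 the counts were 3 and 2 of 4, for Hoxb9 3 and 1, for Hoxd8 2 and 2, for Hoxd11 2 and 2, for Hoxa9 2 and 2, for Hoxc5 1 and 1, and for Hoxb13 1 and 0. Within LiPS-50, Hoxb9, Hoxb13, Hoxd8 and Hoxd11 were each lowest in the culture that was highest in the list. Among 19937 other genes, the 5 most like Hoxc6, the called member with the smallest adjusted p, over the 12 arrays by Pearson's r were Fndc3b (0.966), Slit3 (0.958), Phc3 (0.957), Col1a1 (0.955) and Pdgfrb (0.955). Because Hoxc6 was picked for its difference in LiPS-50, any gene high in that line comes out as like it, and the values are a description only.

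**Figure D4:**
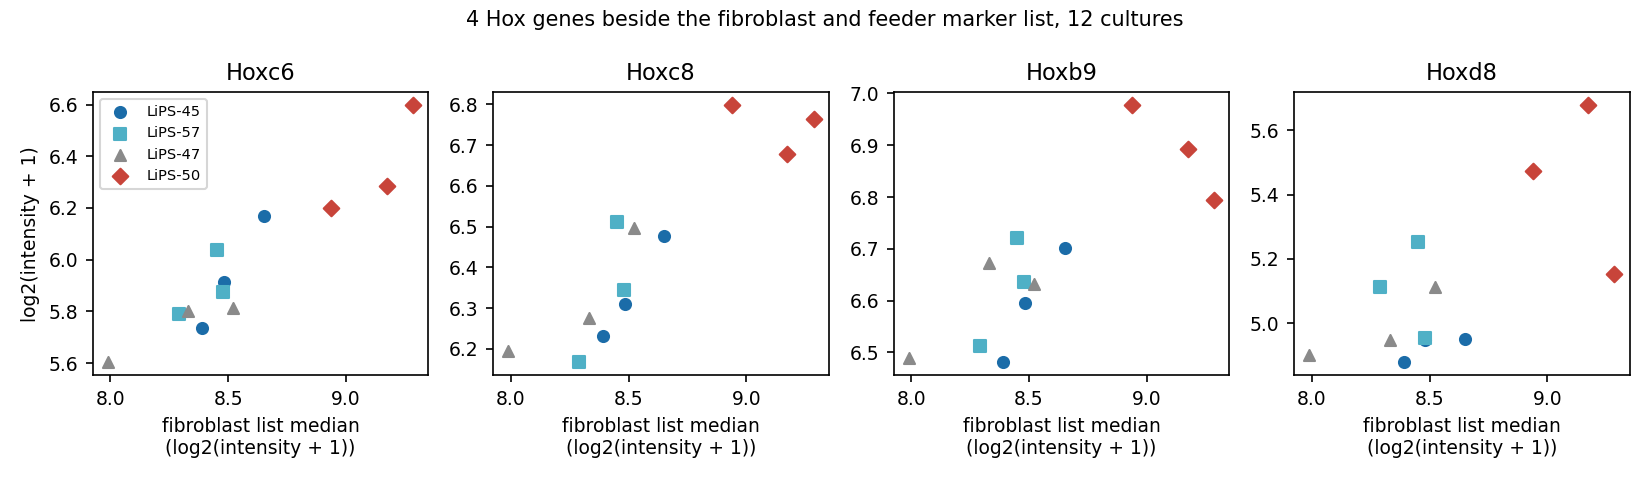
Hoxc6, Hoxc8, Hoxb9 and Hoxd8 in each of the 12 cultures (vertical axis, log2(intensity + 1)) against the median of the 31 fibroblast and feeder genes in the same culture (horizontal axis, same scale). The 3 LiPS-50 cultures sit at list medians of 8.94 to 9.28, to the right of the other 9, and within LiPS-50 only Hoxc6 has its top culture at the highest list median.

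Some other genes that carry positional identity in fibroblasts were also higher in LiPS-50. Of 8 such genes, 5, 3 and 3 were called higher than in LiPS-45, LiPS-57 and LiPS-47 and 0 lower. Among all probe sets the share called higher was 8.18%, 8.16% and 8.48%. Tbx15, a T-box gene of skin and limb mesenchyme, exceeded its LiPS-47 level 1.61-fold in LiPS-50 (difference 0.69, limma adjusted p = 0.00707). Emx2, a homeobox gene of the urogenital tract and forebrain, was 1.27-fold higher (adjusted p = 0.0179), and Pitx1, a hindlimb gene, 1.27-fold higher (adjusted p = 0.0240). The fibroblast list had 30 of 31 genes called in that comparison, led by Pdgfra at 2.38-fold (adjusted p = 2.91e-05), Col3a1 at 2.05-fold (8.58e-05) and Col6a1 at 1.82-fold (1.64e-04). The least changed of the list were Tagln at 1.15-fold, which was not called (adjusted p = 0.166), and Vim at 1.29-fold (adjusted p = 0.00826). The Hox genes called higher in that comparison ranged from 1.22-fold for Hoxb9 to 1.54-fold for Hoxc6. Vim read 12.6 in LiPS-50 and no Hox value exceeded 6.98, so folds of such unlike intensities are not set against each other. The part of the fibroblast genes in the Hox changes was not tested.

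The cofactors that bind DNA with Hox proteins moved in both directions. Of 8 measured genes, 4 were called in each comparison with LiPS-50, 2 higher and 2 lower in LiPS-50, and 0 in the comparisons without it. Over all probe sets 16.5%, 15.6% and 15.8% were called against LiPS-45, LiPS-57 and LiPS-47. Meis2 read 6.54 ± 0.188 (SD, n = 3) in LiPS-50 and 5.85 ± 0.0542 in LiPS-47, 1.62-fold higher (limma adjusted p = 8.37e-04). Meis1 read 6.83 ± 0.214 and 6.15 ± 0.263, 1.60-fold higher (adjusted p = 0.00602). Pbx2, in contrast, read 7.60 ± 0.0327 in LiPS-50 and 8.13 ± 0.0559 in LiPS-47, 1.45-fold lower (adjusted p = 1.29e-04). The median difference over the list was 0.068, -0.022 and -0.023 against LiPS-45, LiPS-57 and LiPS-47, so the list as a whole had no common direction.

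The ParaHox and Cdx, caudal epiblast and neural lists gave calls only on the lower side in LiPS-50. Of all probe sets 8.3%, 7.48% and 7.31% were called lower in LiPS-50 against LiPS-45, LiPS-57 and LiPS-47. The part of these lists in the Hox values was not tested. Of the 6 ParaHox and Cdx genes, which switch on trunk Hox genes in the embryo, 0, 0 and 1 were called against LiPS-45, LiPS-57 and LiPS-47. The 1 was Cdx4, at 3.36 ± 0.192 (SD, n = 3) in LiPS-50 and 3.75 ± 0.198 in LiPS-47, 1.31-fold lower (limma adjusted p = 0.0361). Both means lay below 3.94, the lowest single value of any Hox gene, and how far they stood above background was not tested. Of 9 measured genes of the caudal epiblast and presomitic mesoderm, the embryonic tissue in which trunk Hox genes come on, 2, 2 and 3 were called, all lower in LiPS-50, with Cdx4 counted in this list as well. Fgf8, its main growth factor, was 2.31-fold lower than in LiPS-47 (adjusted p = 1.06e-05), and Nkx1-2, a homeobox gene of the same cells, 1.28-fold lower (adjusted p = 0.0242). Neural genes gave 1, 2 and 2 calls of 6, all lower, with Olig2 at 1.54-fold and Nes at 1.21-fold against LiPS-47.

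The retinoic acid list, a pathway that induces anterior Hox genes, was mixed. Of 16 measured genes, 6 were called in each comparison with LiPS-50, 4, 2 and 3 of them higher in LiPS-50, where 16.5%, 15.6% and 15.8% of all probe sets were called. Cyp26a1, the enzyme that degrades retinoic acid and is itself induced by it, read 5.23 ± 0.0710 (SD, n = 3) in LiPS-50 and 6.99 ± 0.170 in LiPS-47, 3.39-fold lower (limma adjusted p = 1.13e-06). Dhrs3, which limits retinoic acid synthesis, was 1.51-fold lower (adjusted p = 0.00137), and Crabp1, a binding protein of retinoic acid, 1.69-fold higher (adjusted p = 7.24e-04). Paralogs 1 to 4, the part of the code that retinoic acid induces first, had no call in the same comparison. All 11 of them nevertheless had the higher mean in LiPS-50, with a median difference of 0.18. The part of retinoic acid in the Hox values was not tested.

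Of the 20 measured Polycomb genes, 7 were called in each comparison with LiPS-50, 5 lower and 2 higher, and 0 in the comparisons without LiPS-50. All 20 had means above 5.21, the 40th percentile of all tested probe sets, and calls were more frequent among such probe sets. Against LiPS-45, LiPS-57 and LiPS-47, 4771, 4527 and 4568 of all 28939 were called (16.5%, 15.6% and 15.8%). With the filter at that value 5464, 5130 and 5129 were called, though fewer were tested. Phc1, a subunit of Polycomb repressive complex 1, read 9.85 ± 0.0679 (SD, n = 3) in LiPS-50 and 10.3 ± 0.0554 in LiPS-47, 1.36-fold lower (limma adjusted p = 3.04e-04). Its relative Phc3, named above for its r of 0.957 with Hoxc6, was not on the list and is not in these counts. Kdm2b, which acts at CpG-rich promoters, was 1.28-fold lower (adjusted p = 7.43e-04). Phf19, an accessory subunit of Polycomb repressive complex 2, was 1.54-fold higher (adjusted p = 5.58e-05). Of the 9 trithorax and demethylase genes, which oppose Polycomb silencing, 2, 4 and 3 were called, 1 of them higher in LiPS-50 in each case. Kdm6a, an X-linked demethylase, was 1.47-fold higher than in LiPS-47 (adjusted p = 9.37e-04), whereas Men1 (difference -0.32, adjusted p = 0.00161) and Dpy30 (difference -0.21, adjusted p = 0.0401), parts of methyltransferase complexes, were lower.

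Inside the clusters, 11 of 32 noncoding genes had a probe set, and only Mir196a-1 was called. It read 4.45 ± 0.119 (SD, n = 3) in LiPS-50, 4.11 ± 0.113 in LiPS-47, 4.03 ± 0.196 in LiPS-57 and 3.997 ± 0.242 in LiPS-45. It was 1.37-fold higher in LiPS-50 than in LiPS-45 (limma adjusted p = 0.0295) and 1.34-fold higher than in LiPS-57 (adjusted p = 0.0417), and against LiPS-47 the difference of 0.33 was not called (adjusted p = 0.102). Mir196b, which differs from it by 1 base in the mature RNA shown above, read 4.68 ± 0.0286 in LiPS-50 and 4.46 ± 0.0304 in LiPS-47 and was not called (0.23, adjusted p = 0.138). Mir196a-2, with the same mature RNA as Mir196a-1, read 3.41 ± 0.138 in LiPS-50 and 3.47 ± 0.301 in LiPS-45 and was not called. Mir10a and Mir10b, in the anterior part of their clusters, differed by at most 1.08-fold between LiPS-50 and the other lines. Whether these probe sets read the mature microRNA or a longer transcript of the locus was not tested.

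Some genes beside the clusters were also called, and their median differences (LiPS-50 minus LiPS-45, LiPS-57 and LiPS-47) were 0.047, -0.034 and -0.047. The 3 nearest measured genes on each side of each cluster were taken, of which the noncoding Hottip is counted with the noncoding genes. Of the other 23, 4, 2 and 3 were called against LiPS-45, LiPS-57 and LiPS-47, and 3, 1 and 3 of these were higher in LiPS-50. The largest was Calcoco2, an autophagy receptor beside the Hoxb cluster, at 8.69 ± 0.0903 (SD, n = 3) in LiPS-50 and 7.17 ± 0.147 in LiPS-47, 2.86-fold higher (limma adjusted p = 2.38e-07). Hibadh, a valine-degrading enzyme beside Hoxa, was 1.20-fold higher (adjusted p = 0.00743), and Nfe2l2, the oxidative stress regulator beside Hoxd, 1.18-fold higher (adjusted p = 0.0488). Calcoco2 exceeded every Hox gene in the size of its change, and Hoxb9 in the same cluster changed 1.22-fold in that comparison.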

How the data were processed

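Total RNA of 12 cultures was labelled with Affymetrix whole-transcript kits, per the labels' protocols, and GCOS 1.4 is named in the submitters' processing notes. The deposited table gives 1 linear intensity per probe set and array; how the authors summarised and normalised it is not given in the sources used here. Of 35556 probe sets, 6617 numbered below the annotated range were taken as controls and left out, and of the 28939 tested, 21789 list 1 gene, 1621 several and 5529 none. Values were taken as log2(intensity + 1) and fitted with limma 3.58.1 (R 4.3.3) as 4 line means over 12 arrays (8 residual and 4.06 prior degrees of freedom). The competence contrast used the line as a random block (consensus correlation 0.183). P-values are two-sided and Benjamini-Hochberg adjusted over all tested probe sets, with a threshold of 0.05. Beyond the label of biological repeat nothing says that the cultures are independent. A p-value between 2 lines sets the difference of their means against the spread between these cultures within lines. The number of arrays limits the precision. No 2 arrays shared more than 0.607% of identical values.

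The members and the lists were chosen with earlier results of these data known. Every Hox gene is accounted for, values in every array are given for each called Hox gene, and each related list is described by counts and at most 3 members with the smallest p in LiPS-47 against LiPS-50; Hoxb6, Hoxc10, Hoxc13, Hoxb4, Tagln and Vim were named after their values were seen, and Mir196a-2, Mir10a and Mir10b for their sequences. Lists of trophectoderm (6, 4 and 7 of 10 genes called between LiPS-50 and LiPS-45, LiPS-57 and LiPS-47 in turn) and primitive endoderm markers (6, 4 and 4 of 9) moved in both directions, and of the 15 pluripotent genes 6, 7 and 5 were called in both directions. Alternatives were a replicate block, median centring, quantile normalization, a filter on low values, the control probe sets kept, a pseudocount of 16, only the lines compared, and each culture left out. Replicate numbers were not used to pair the cultures across lines in the main fit, since the labels name no shared day or batch. The script was tested on simulated data.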

Additional observations from a re-analysis of the deposited data

How the results depend on the processing

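None of the 16 calls reversed, and 213 of their 301 values under the alternatives kept the call. Only 3 calls held in all alternatives run for them: Hoxc6 and Hoxc5 against LiPS-47 and Hoxd8 against LiPS-45, which, with a mean below 5.21, could not be followed under the filter. Apart from left-out cultures, Hoxc8 (all 3 comparisons) also kept its calls, and so did Hoxb13, which likewise could not be followed under the filter. The count against LiPS-45 was 6, and 2 with median centring, 3 with only the lines compared, and 2 to 9 without 1 culture (2 without LiPS-45 replicate 1 or 3 or LiPS-50 replicate 2, 3 without LiPS-50 replicate 3). Against LiPS-57 it was 4, and 7 of 20 with the filter, 1 with control probe sets kept, and 0 to 4 without 1 culture (0 without LiPS-57 replicate 1, 1 without LiPS-57 replicate 2 or LiPS-50 replicate 2, 2 without LiPS-50 replicate 1 or LiPS-47 replicate 1). Against LiPS-47 it was 6, and 3 to 6 without 1 culture, 3 without LiPS-50 replicate 3. The control setting tests more probe sets, the filter fewer and the fits of only the lines compared use fewer arrays; the cause of the other shifts was not tested. Median centring also moved the split of all calls against LiPS-47 from 2453 higher and 2115 lower in LiPS-50 to 2011 and 2590. It left the Hox mean higher in LiPS-50 for 32, 26 and 28 of 37 genes (medians 0.13, 0.054 and 0.084). The other 3 comparisons of lines and competence gave 0 members in every alternative run. With the replicate number as a block the counts were 4, 4 and 6. Samples of the same number correlated at -0.17 to 0.12 in their deviations and others at -0.18 to 0.20. By this measure the same number did not bring samples closer, and a shared day or batch was not tested. Averaging several probe sets of a gene was not run, since each member has 1. Of the 37 members 17 lie below the 40th percentile of intensity, and how far they stand above background was not tested.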
